A study of Mus musculus with 24 samples.

Results

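The comparison described here is that of bone marrow-derived macrophages (BMDMs) labelled FosKO with BMDMs labelled LysM-Cre after 2 h of LPS. It holds 6 of the 24 libraries of the series, 3 for each genotype, chosen by their labels. Of the 24273 genes in the table, 13901 passed a filter on low values and were tested. BMDMs are macrophages grown in culture from mouse bone marrow, here from mice on a C57BL/6 background. They were kept overnight in medium with little serum and then given LPS at 100 ng/ml. Both groups carry LysM-Cre, a Cre recombinase placed at the lysozyme gene Lyz2 and active in myeloid cells. In the FosKO group Cre was meant to delete floxed Fos. The controls are labelled LysM-Cre only. By the study's text they also carried a floxed Fos allele beside a wild-type one, and the values do not show which applied. The donors' age was not given in the sources used here. The remaining libraries, at 0, 0.5 and 1 h of LPS, serve as the background before and during the response.

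FOS is a basic leucine zipper protein that pairs with JUN proteins to form AP-1, a transcription factor that binds the sequence TGANTCA. LPS from Gram-negative bacteria binds TLR4, which signals through MyD88 to NF-kB and the MAP kinases and through TRIF and TBK1 to IFN regulatory factors (IRFs). The IRFs switch on Ifnb1 and other type I IFN genes, and secreted IFN then acts through its receptor, JAK kinases and STAT proteins on a large set of IFN-stimulated genes. ERK signaling through the kinase TPL-2 is known to hold down Ifnb1 in LPS-treated macrophages, and Fos is a gene that ERK induces. The comparison asks which LPS-treated transcripts differ where Fos was meant to be deleted.

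All values are on the log2 scale, as normalised and deposited by the authors, so a difference of 1 is 2-fold. Differences are FosKO minus LysM-Cre. A gene is called when limma, fitted over all 24 libraries, gave an adjusted p under 0.05. Read numbers per library are unknown, and the only error given is the spread between libraries. The study calls the libraries biological replicates, but nothing in the labels says that they came from separate animals, and the p-values measure the spread between these libraries.

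The targeted gene was not lower in the libraries labelled FosKO. Fos read 9.61, 9.42 and 9.52 in the LysM-Cre libraries and 12.93, 12.67 and 12.81 in the libraries labelled FosKO. The groups did not overlap, and the difference was 3.29 (SE 0.09). With 1 value per gene, the floxed exons cannot be read apart from the others. The table therefore does not show whether the protein was lost, and the genotype rests on the label. Lyz2, the gene that carries Cre, read 11.18, 11.43 and 11.17 in the LysM-Cre libraries and 16.33, 16.29 and 16.33 in the libraries labelled FosKO. This difference of 5.06 was the largest of the comparison, and it was 5.17 before LPS. Whether the groups differed in copies of the Cre allele was not given, and its part in the other differences was not tested. The neighbouring gene Lyz1 read 0.65 lower.

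The 6 libraries were close to each other within a group. Across genes, libraries of one group correlated at r between 0.9979 and 0.9981 and libraries of different groups at r between 0.9917 and 0.9929, where genes are no independent replicates. For a single gene the median SD was 0.06 among the LysM-Cre libraries and 0.07 among those labelled FosKO. The 18S ribosomal RNA gene lay between 18.88 and 19.35 in all 6, whereas 2 of the 6 libraries at 0.5 h and 3 of the 6 at 1 h lay below 18. On the linear scale, ribosomal and small RNA genes summed to 483000 to 525000 in the LysM-Cre libraries and 576000 to 670000 in the others, without overlap. Of the 4 such genes that were tested, 0 were called, with a median of 0.13. Among 13 mitochondrial transcripts 0 were called higher and 4 lower, with a median of -0.13. Summed on the linear scale, 11 macrophage markers came to 177000 to 181000 in the LysM-Cre libraries and 188000 to 195000 in the others. All 9 markers of lymphocytes were below 5 in all 6 libraries. Of 11 neutrophil markers 5 were below 5 in all 6 libraries, Ly6g and Elane among them, and the sum was 1100 to 1130 against 1610 to 1630. Of the 6 that were tested, 1 was higher and 5 were lower, 3 of these past 2-fold, with a median of -0.82, so the sum and most of its members went opposite ways. Endothelial markers summed to 2620 to 2700 against 3560 to 4220 and monocyte markers to 927 to 1090 against 1220 to 1290. Dendritic cell markers summed to 561 to 625 against 467 to 487, with 2 of 5 tested called lower. The part of these cells in the results was not tested. In bulk RNA, fewer cells of a type and less RNA per cell cannot be told apart.

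After 2 h of LPS the libraries labelled FosKO held far more type I IFN mRNA, more Il6, Il12b and Il27, and less Il10, Csf2, Ccl22 and Cav1 than the LysM-Cre libraries. Of 13901 tested genes, 3386 (24.4%) were called higher and 2816 (20.3%) lower. Most of these differences were small, with a median size of 0.29 among called genes. A difference of at least 2-fold was called in 199 genes that were higher (1.43%) and 78 that were lower (0.561%). Among all tested genes, 43 passed the filter only through the libraries labelled FosKO at 2 h and 37 only through the LysM-Cre libraries at 2 h. Of the 199, 6 passed only through the first, and of the 78, 1 passed only through the second. The filter favoured these directions in such genes without forcing a call, so nothing is read from them. Of all 2-fold genes, 16 were over 4-fold higher and 12 over 4-fold lower. The groups did not overlap in 54% of all tested genes, and in 198 of the 199 and 78 of the 78, which were chosen on these same libraries, so that nothing is read from it. The share of calls that were higher was 54.6%, and after quantile normalisation it was 43%, so the balance of small differences depends on the scaling.

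**Figure D1:**
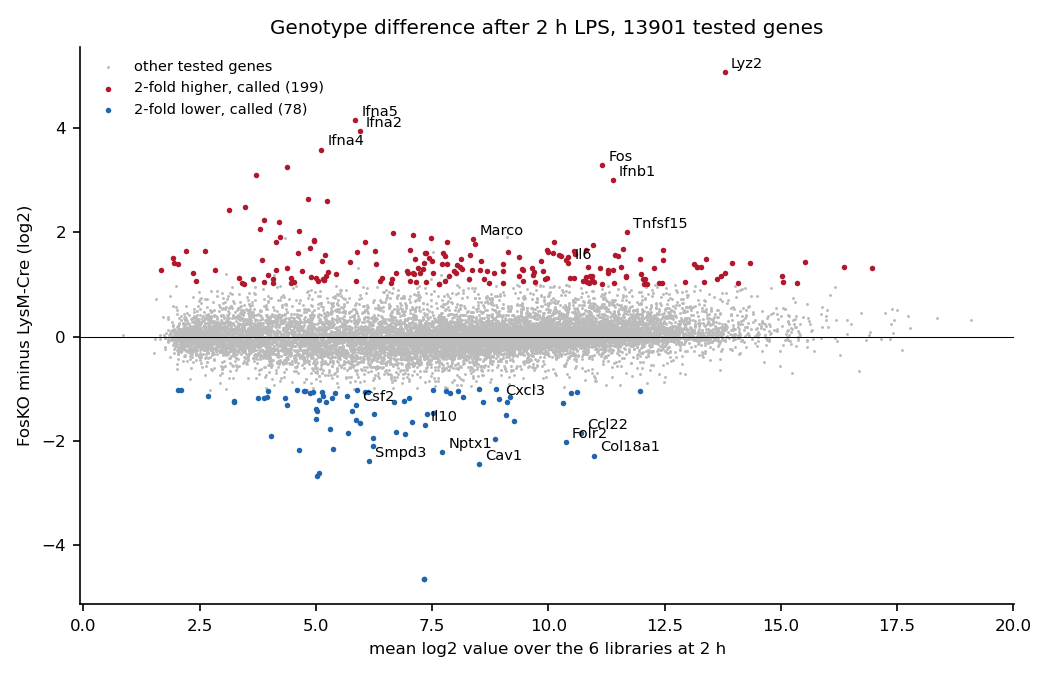
Each point is a tested gene, with its mean log2 value over the 6 libraries at 2 h on the x axis and its difference, FosKO minus LysM-Cre, on the y axis in log2 units. The 199 genes called at least 2-fold higher are red and the 78 called at least 2-fold lower are blue, with Lyz2 at 5.06 and Cav1 at -2.45.

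Many of the large differences were already present before LPS. The difference at 2 h was compared with that at 0 h by an interaction term in the same fit. This term was called in 15% of all tested genes, higher in 7.27% and lower in 7.7%. Among the 199 genes that were 2-fold higher at 2 h, it was called higher in 63, lower in 2 and not called in 134. Among the 78 that were 2-fold lower, it was called lower in 31, higher in 2 and not called in 45. These genes were chosen on the 2 h difference, which the term contains, so the choice favours these directions and the counts are a description. IFN genes, Il6 and Klf4 belonged to the first kind, and Lyz2, the antiviral genes, Smpd3 and Col18a1 to the kind with no call. A gene with no call is not shown to have had the same difference at both times.

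**Figure D2:**
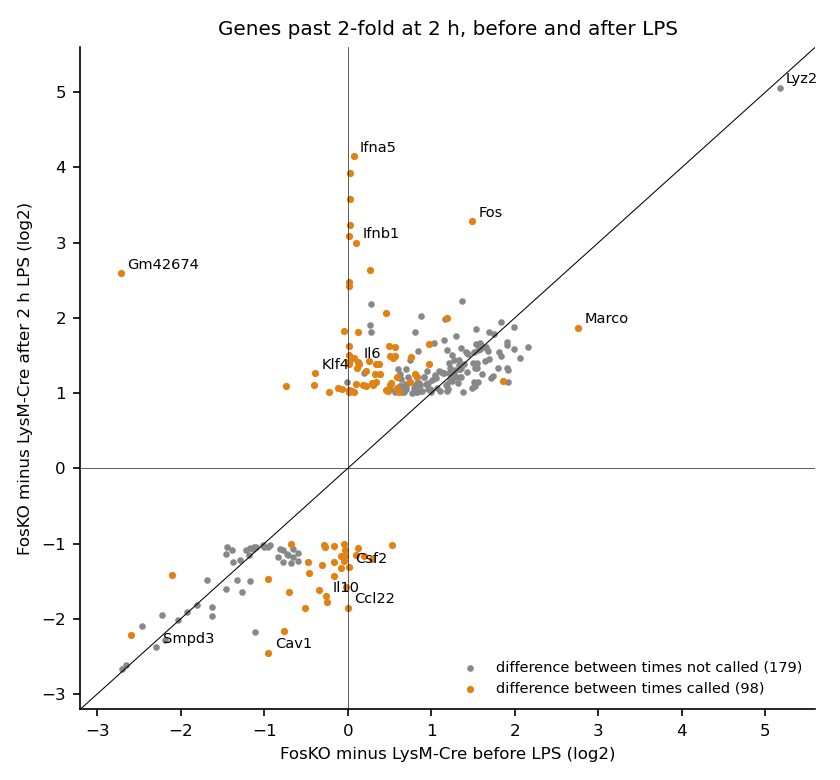
Each point is 1 of the 277 genes called at least 2-fold different at 2 h, with its FosKO minus LysM-Cre difference before LPS on the x axis and after 2 h of LPS on the y axis, both in log2 units. The diagonal marks equal differences, and orange points are the 98 genes whose difference between the times was called. Ifnb1 lies at 0.10 before and 3.00 after LPS, whereas Lyz2 lies at 5.17 and 5.06.

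The genes of type I IFN itself were among the most widely separated. Ifnb1, which encodes IFN-beta, read 9.84, 9.84 and 9.97 in the LysM-Cre libraries and 12.96, 12.78 and 12.93 in the libraries labelled FosKO. The groups were 8.02-fold apart (difference 3.00, SE 0.12, adjusted p = 3.01e-13). Before LPS they differed by 0.10 (adjusted p = 0.609), and the difference between the times was 2.91. Ifna5 read 4.04, 3.52 and 3.75 against 7.97, 7.75 and 8.05, which is 17.8-fold (4.15, adjusted p = 1.55e-16). Ifna2 read 4.19, 3.83 and 3.91 against 7.88, 7.80 and 8.05, a 15.3-fold difference. Ifna4, known as an early-induced IFN-alpha, read 2.93, 3.59 and 3.47 against 6.92, 6.74 and 7.07, a 12-fold difference. In each of the 4 genes every library labelled FosKO was above every LysM-Cre library. No overlap was a condition for naming the largest rises, and the groups did not overlap in 54% of all tested genes. Nothing is read from it. The other 7 IFN genes that were tested lay between 1.38 and 3.24 higher. Of these, Ifnab, Ifna14 and Ifna11 passed the filter only through the libraries labelled FosKO at 2 h. The filter thus favoured their being higher, and nothing is read from these 3. A further 5 of the 16 IFN genes in the table (Ifna12, Ifna13, Ifna15, Ifnk and Ifnz) were too low to test. IFN-alpha genes are near-identical copies whose reads can be split among them, so the value of any single one is uncertain, and Ifnb1 is a separate single gene.

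The promoters of these genes show the elements through which IRFs are known to act. The 250 bases before the start of Ifnb1 and of the 3 IFN-alpha genes are given 5' to 3' on the gene's strand, from RefSeq on build GRCm38.p6, with motif matches in capitals. The motifs searched on both strands were 2 copies of GAAA with any 2 bases between them (the core of the IFN-stimulated response element, ISRE), TGANTCA (AP-1), TGACGTCA (CRE) and GGG, any 2 bases and TTTCC (NF-kB). AANNGAAA (a shorter IRF element) and GGGA, any 2 bases and TTCC (a second NF-kB form) were added after these sequences had been seen. Every ISRE core contains the shorter element, and the NF-kB forms can overlap. Ifnb1 lies on the minus strand at chr4:88522795-88523044, Ifna4 on the plus strand at chr4:88841566-88841815, Ifna5 on the plus strand at chr4:88835275-88835524 and Ifna2 on the minus strand at chr4:88683780-88684029. In Ifnb1 the capitals mark 3 shorter IRF elements and, next to the last, 1 NF-kB match of the second form.
Ifnb1: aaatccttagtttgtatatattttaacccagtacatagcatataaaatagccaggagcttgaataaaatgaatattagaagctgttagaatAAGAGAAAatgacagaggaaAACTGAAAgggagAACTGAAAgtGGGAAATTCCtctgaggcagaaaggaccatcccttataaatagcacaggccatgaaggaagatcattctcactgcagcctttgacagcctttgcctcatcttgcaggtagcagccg
Ifna4: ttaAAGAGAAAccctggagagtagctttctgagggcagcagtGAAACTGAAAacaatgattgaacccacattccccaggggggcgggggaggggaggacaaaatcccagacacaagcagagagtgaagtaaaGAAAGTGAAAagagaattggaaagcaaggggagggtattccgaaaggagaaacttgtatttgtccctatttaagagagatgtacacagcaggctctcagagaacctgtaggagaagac
Ifna5: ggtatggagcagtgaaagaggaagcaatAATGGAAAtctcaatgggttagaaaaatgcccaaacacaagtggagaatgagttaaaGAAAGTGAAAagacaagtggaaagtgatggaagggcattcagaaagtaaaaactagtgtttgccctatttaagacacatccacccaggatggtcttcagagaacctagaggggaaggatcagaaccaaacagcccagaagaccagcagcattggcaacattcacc
Ifna2: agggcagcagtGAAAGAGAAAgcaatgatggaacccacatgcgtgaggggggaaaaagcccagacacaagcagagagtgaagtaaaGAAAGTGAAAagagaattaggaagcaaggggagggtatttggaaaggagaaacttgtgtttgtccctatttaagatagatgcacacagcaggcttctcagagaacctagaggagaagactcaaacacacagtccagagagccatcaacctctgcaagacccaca
The ISRE core occurred 2 times in Ifna4, 1 time in Ifna5 and 2 times in Ifna2, and it was not matched in Ifnb1. AP-1 letters were not found in any of the 4 windows, which says nothing about binding of the factor elsewhere.

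Over longer windows of 300 bases, the ISRE core was common among the genes that were higher. RefSeq promoters were matched for 9526 of the tested genes (68.5%), for 136 of the 199 genes that were 2-fold higher (168 promoters) and for 55 of the 78 that were lower (74 promoters). The ISRE core was present in 23.8% of the promoters of higher genes, in 0 of the 74 promoters of lower genes and in 3.33% of promoters of all tested genes. In all 32851 promoters of the table the share was 3.44%. The 40 promoters of higher genes with the core include 9 of the 11 of the IFN genes, many of which are near copies of each other. Without the IFN genes the share was 19.7% (31 of 157). The AP-1 motif was present in 12.5% of the promoters of higher genes and 13.5% of those of lower genes, against 5.32% of tested and 7.81% of all promoters. CRE was found in 3.57% and 1.35%, against 3.06% of tested and 1.79% of all promoters. NF-kB was found in 2.98% and 1.35% (tested 1.79%, all 1.63%), and its second form in 5.36% and 1.35% (tested 1.55%, all 1.47%). The shorter IRF element was found in 47% and 10.8% (tested 18.4%, all 23.9%). These shares are descriptions of sequence and do not locate binding.

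Genes on the route from TLR4 to IFN differed less than the IFN genes. Of 17 tested members of the TRIF and TBK1 route, 9 were higher and 2 lower, with a median of 0.19 against 0 for all tested genes. Irf8, an IRF of myeloid cells, read 12.51, 12.45 and 12.65 in the LysM-Cre libraries and 13.85, 13.85 and 13.90 in the others. The groups did not overlap (1.33, SE 0.04, adjusted p = 3.07e-15), and the difference before LPS was 0.11. Irf7, which drives IFN-alpha genes and is itself IFN-stimulated, read 12.35, 12.33 and 12.57 against 13.40, 13.43 and 13.56. Its difference of 1.05 was not separated from the 1.2 before LPS (interaction adjusted p = 0.635). Traf3, an adaptor of the TRIF route, was 0.35 lower, and Hmga1, a chromatin protein of the Ifnb1 enhancer, 0.31 lower.

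Among 15 genes of the IFN receptor and JAK-STAT pathway, 8 were higher and 3 lower, with a median of 0.14. The inhibitors Usp18 and Socs1 were 0.90 and 0.85 higher. Ifnar1, a chain of the type I IFN receptor, read 12.83, 12.82 and 12.83 in the LysM-Cre libraries and 12.42, 12.44 and 12.40 in the others. It was lower by a small amount with very little spread (-0.40, SE 0.02, adjusted p = 8.97e-11), and the difference before LPS was 0.01. Ifngr2, a chain of the IFN-gamma receptor, was 0.23 lower.

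IFN-stimulated genes were higher almost throughout, and this was so before LPS as well. Over antiviral effectors, nucleic acid sensors, IFN-inducible GTPases and genes of MHC class I presentation, 73 were tested, 69 were higher, 1 was lower and 3 were not called, and 19 were 2-fold higher. At 0 h, where 35.4% of all tested genes were called, 68 of the 73 were higher and 1 was lower. The median difference was 0.73 at 0 h and 0.75 at 2 h. The difference between the times was called higher in 0 of the 73 and lower in 1, against 7.27% and 7.7% of all tested genes. The IFN-stimulated genes thus differed at both times, whereas a difference in Ifnb1 was called after LPS and not before.

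The antiviral effectors had 24 of 25 members higher, with a median of 0.81. Ifit3b, a member of the IFIT family that binds viral RNA, read 11.53, 11.53 and 11.82 in the LysM-Cre libraries and 13.30, 13.20 and 13.36 in the others, 1.66 higher after 1.58 at 0 h. Ifi44 was 1.45 higher. Among 16 nucleic acid sensors 13 were higher and 1 was lower (12 and 2 after quantile normalisation), with a median of 0.73, and the lower call (Dhx36, -0.08) was lost without LysM-Cre replicates 1 or 3 or FosKO replicates 1 or 2 (-0.07 to -0.08). Ifi205, of the DNA-sensing IFI200 family, was 1.34 higher, and Zbp1, a sensor of Z-form nucleic acid, 1.28. All 16 IFN-inducible GTPases, which attack the vacuoles of intracellular pathogens, were higher, with a median of 0.93, led by Iigp1 at 1.64 and Tgtp1 at 1.37. All 16 genes of MHC class I presentation were higher, with a median of 0.43, but 12 higher and 1 lower were called after quantile normalisation. Nlrc5, the transactivator of MHC class I genes, was 1.02 higher and the peptide transporter Tap1 0.75. Of 10 MHC class II genes 4 were higher (2 after quantile normalisation), with H2-DMa, which helps to load peptides, at 0.44.

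Inflammatory cytokines were mostly higher in the libraries labelled FosKO. Of 15 tested, 12 were higher and 2 lower, with a median of 0.57, and the lower call of Lif was lost without LysM-Cre replicates 1 or 2 or FosKO replicate 1 (-0.20 to -0.27). Il6 read 9.65, 9.60 and 9.92 in the LysM-Cre libraries and 11.10, 10.96 and 11.33 in the others. The groups did not overlap (1.41, SE 0.12, adjusted p = 5.54e-09), and the difference before LPS was 0.12. Il12b, the p40 chain shared by IL-12 and IL-23, read 12.33, 12.42 and 12.59 against 13.77, 13.77 and 13.96 (1.39, adjusted p = 2.86e-09). Il27, the p28 chain of IL-27, read 11.20, 11.14 and 11.36 against 12.69, 12.66 and 12.80, and differed by 1.48. Tnf and Il1b, the classic early cytokines of LPS, were 0.57 and 0.42 higher. Csf2, which encodes GM-CSF, went the other way. It read 6.44, 6.49 and 6.60 in the LysM-Cre libraries and 5.34, 4.81 and 5.46 in the others (-1.31, adjusted p = 5.9e-08), with no difference seen before LPS (0.01, adjusted p = 0.969).

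The promoter of Il6 is shown because it holds both an AP-1 and an NF-kB match, in capitals, at -249 and -44 from the start. It lies on the plus strand at chr5:30012864-30013113.
Il6: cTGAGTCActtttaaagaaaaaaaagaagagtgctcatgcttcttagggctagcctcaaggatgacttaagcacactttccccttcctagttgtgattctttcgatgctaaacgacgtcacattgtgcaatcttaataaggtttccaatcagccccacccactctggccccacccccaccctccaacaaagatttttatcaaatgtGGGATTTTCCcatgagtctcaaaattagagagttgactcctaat
The NF-kB match has both forms of the motif at once. A promoter of Il10 was not in the table.

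Anti-inflammatory mediators were divided. Of 15 tested, 8 were higher and 5 lower, with a median of 0.12, and after quantile normalisation 4 were higher and 6 lower. The difference between 2 h and 0 h was called higher in 2 and lower in 6, against 7.27% and 7.7% of all tested genes. Il10, the main anti-inflammatory cytokine of macrophages, read 8.08, 8.18 and 8.31 in the LysM-Cre libraries and 6.38, 6.30 and 6.79 in the others. It was 3.25-fold lower with no overlap (-1.70, SE 0.13, adjusted p = 3.76e-09), after a difference of -0.26 before LPS (adjusted p = 0.152). Bcl3, a nuclear IkB protein that limits NF-kB genes, was 0.40 lower at 2 h and 0.38 higher at 0 h. Gdf15, a stress-induced cytokine, was 0.99 higher and Nfil3, a leucine zipper repressor, 0.78 higher.

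The chemokines went both ways, also within a kind. Among IFN-type chemokines, which recruit T cells and monocytes, 4 of 7 were higher and 0 lower (1 lower after quantile normalisation), with a median of 0.80. At 0 h, where 35.4% of all tested genes were called, all 7 were higher, with a median of 1.3. Cxcl9 read 9.97, 9.88 and 10.42 in the LysM-Cre libraries and 11.78, 11.80 and 11.98 in the others (1.76, adjusted p = 8.4e-06). Ccl12 was 1.58 higher and Cxcl10 0.80 higher (adjusted p = 0.00311). Before LPS the differences of Cxcl9, Ccl12 and Cxcl10 were 1.30, 1.57 and 1.33. Among 10 chemokines for monocytes and lymphocytes, 4 were higher and 5 lower, with a median of -0.19. Ccl3 and Ccl4, early macrophage chemokines, were 0.74 and 0.55 higher. Ccl22 and Ccl17, both ligands of CCR4, were lower. Ccl22 read 11.60, 11.62 and 11.68 against 9.74, 9.62 and 9.98 (-1.85, adjusted p = 3.42e-11), with a difference of 0.00 before LPS. Ccl17 read 5.81, 5.80 and 5.79 against 4.11, 3.78 and 4.79 (-1.58, adjusted p = 2.07e-07), where the LysM-Cre libraries were close together and the others spread. Of 5 neutrophil-attracting chemokines 1 was higher and 2 were lower. Cxcl2 was 0.47 higher, whereas its near relative Cxcl3 read 9.47, 9.58 and 9.54 against 8.35, 8.15 and 8.49 and was lower (-1.20, adjusted p = 3.56e-09). Pf4, a platelet chemokine, was 0.27 lower.

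**Figure D3:**
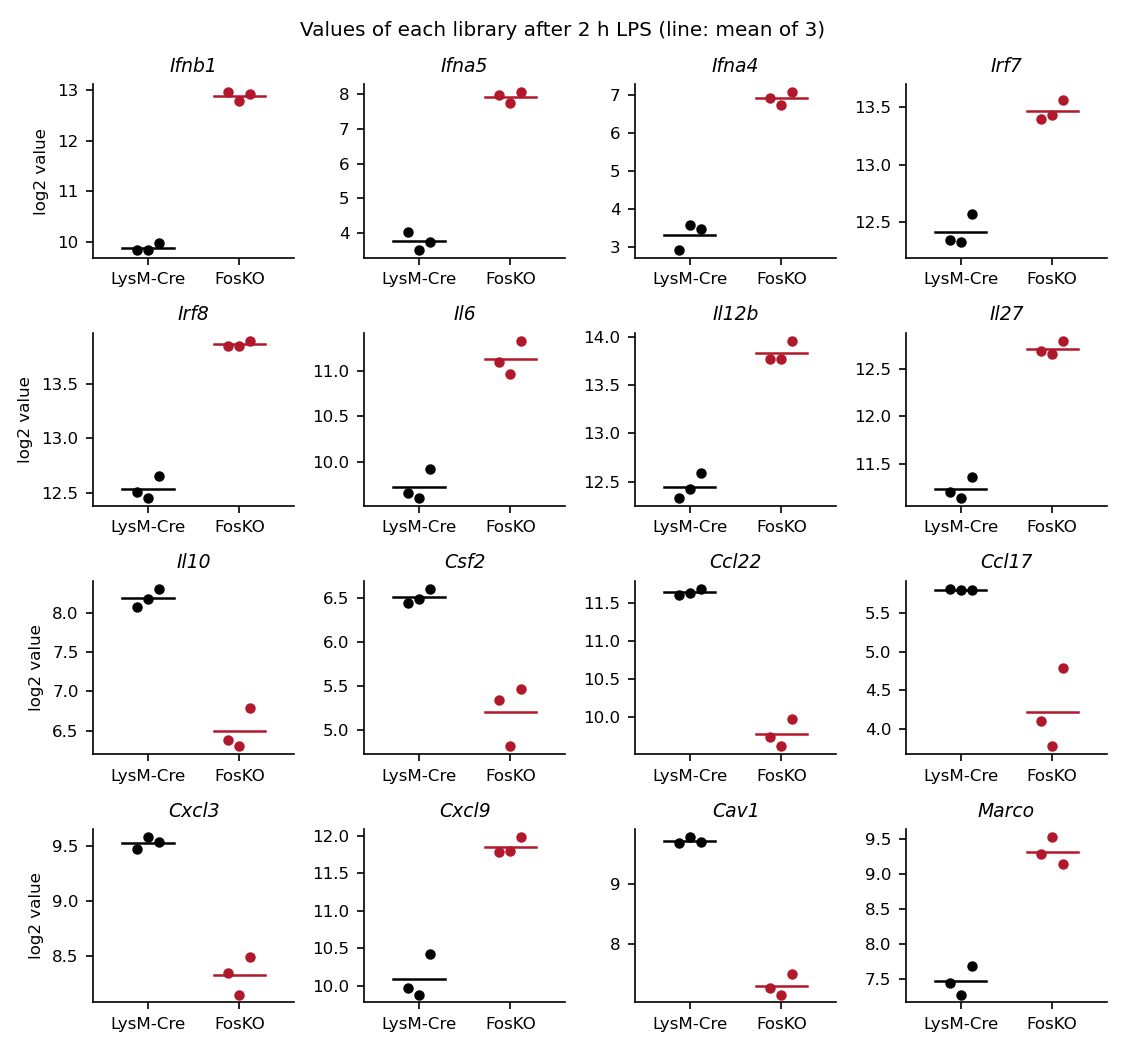
Each panel gives the log2 value of 1 gene in the 3 LysM-Cre libraries (black) and the 3 libraries labelled FosKO (red) after 2 h of LPS, with a line at the mean of 3, and each panel has its own axis that does not start at 0. The groups do not overlap in any of the 16 panels, and Il10, Csf2, Ccl22, Ccl17, Cxcl3 and Cav1 are the lower ones. The panels show genes called on these libraries, and 54% of all tested genes did not overlap, so nothing is read from it.

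Apart from Fos, the Fos and Jun family differed by less than 2-fold. Of its 7 genes 2 were higher (Fos and Jun) and 2 lower (Fosl1 and Fosl2). Jun, the usual partner of FOS, read 9.87, 9.98 and 10.04 in the LysM-Cre libraries and 10.75, 10.73 and 10.79 in the others (0.80, adjusted p = 5.47e-12), after 0.14 before LPS. Fosl1, which encodes FRA-1, read 4.61, 4.61 and 4.71 against 3.99, 3.69 and 3.72 and was 0.85 lower, after 0.90 lower at 0 h. Fosl2, which encodes FRA-2, was 0.21 lower (adjusted p = 0.00771), and without FosKO replicate 2 the difference was -0.16 (adjusted p = 0.0597). Junb, Jund and Fosb differed by 0.13 (adjusted p = 0.0726), 0.09 (adjusted p = 0.2) and -0.33 (adjusted p = 0.359), and Junb and Jund turned to just below 0 after quantile normalisation.

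Genes described in general as AP-1 targets went both ways, and many also answer to other factors. Of 20 tested, 8 were higher and 7 lower, with a median of 0.01, and after quantile normalisation 6 were higher and 9 lower. Serpinb2, a plasminogen activator inhibitor, read 6.69, 6.54 and 6.77 in the LysM-Cre libraries and 7.97, 7.87 and 8.05 in the others, 1.29 higher. Timp1, an inhibitor of metalloproteinases, read 5.88, 5.69 and 5.96 against 4.44, 4.71 and 4.61, 1.26 lower. The member with the largest decrease was Cav1, described with the caveolae.

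Immediate early factors were more often higher. Of 21, 13 were higher and 3 lower, with a median of 0.21. The change in difference from 0 h to 2 h was called higher in 12 and lower in 0. Over all tested genes it was called higher in 7.27% and lower in 7.7%. Klf4, a zinc finger factor, read 7.90, 7.93 and 7.87 in the LysM-Cre libraries and 9.0, 9.20 and 9.29 in the others. It was 1.27 higher at 2 h (SE 0.06, adjusted p = 3.48e-12) and 0.39 lower at 0 h, so the direction was opposite before LPS. Egr1, a zinc finger factor induced through ERK and TCFs, read 9.51, 9.72 and 9.67 against 10.52, 10.51 and 10.78, 0.97 higher after -0.21 at 0 h (adjusted p = 0.109). Ier3 and Myc were 0.35 and 0.32 lower.

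Negative regulators of ERK were divided. Of 14, 6 were higher and 5 lower. Dusp16 and Spry1 were 0.65 and 0.64 higher. Dusp5, a nuclear ERK phosphatase, read 8.75, 8.68 and 8.62 in the LysM-Cre libraries and 8.06, 7.79 and 8.10 in the others, 0.70 lower after 0.99 lower at 0 h. Dusp7, a cytoplasmic one, was 0.35 lower at 2 h and 0.90 higher at 0 h. Of 14 genes of the TPL-2, ERK and TCF route, 5 were higher and 2 lower, but 3 were higher and 6 lower after quantile normalisation. The lower call of Ets1 was lost without LysM-Cre replicates 1 or 2 or FosKO replicates 2 or 3 (-0.17 to -0.20). Ets2, an ETS factor, was 0.65 higher, Map3k8, which encodes TPL-2, 0.27 higher, and the TCF gene Elk3 0.14 lower.

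The NF-kB factors and their inhibitors differed by small amounts whose balance depended on the scaling. Of 16, 7 were higher and 1 lower, but 4 were higher and 5 lower after quantile normalisation, and the largest differences were 0.46 (N4bp1) and -0.29 (Tnip1). Nfkbiz, a nuclear IkB protein needed for Il6 and Il12b, was 0.39 higher. Among 17 Toll-like receptors and adaptors 7 were higher and 3 lower. Tlr4, the LPS receptor, read 10.62, 10.57 and 10.75 in the LysM-Cre libraries and 11.23, 11.10 and 11.05 in the others, 0.49 higher after 0.05 at 0 h. Tlr8 and Tirap were 0.34 and 0.17 lower. Of 9 mRNA decay factors 4 were higher (2 after quantile normalisation) and 1 was lower. Zfp36l1, which binds AU-rich elements, read 10.31, 10.38 and 10.38 against 11.39, 11.30 and 11.43, 1.02 higher, and the nuclease gene Zc3h12a was 0.14 lower.

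Enzymes and receptors of the prostaglandin pathway differed in opposite directions. Of 15, 5 were higher (2 after quantile normalisation) and 5 lower. Ptgs2, the inducible cyclooxygenase COX2, read 12.61, 12.66 and 12.78 in the LysM-Cre libraries and 13.57, 13.57 and 13.79 in the others, 0.96 higher. Ptges, the synthase that makes prostaglandin E2 from the product of PTGS2, read 8.07, 7.98 and 8.11 against 7.33, 7.11 and 7.14. It was 0.86 lower at 2 h (adjusted p = 1.82e-07) and 0.61 higher at 0 h. Ptger2, a receptor of prostaglandin E2, read 7.46, 7.42 and 7.41 against 6.69, 6.46 and 6.57, 0.85 lower. Ptger4, another receptor of prostaglandin E2, was chosen here after its value was seen and was 0.24 higher. Ptgs1, the constitutive cyclooxygenase, was 0.58 lower.

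Among scavenger and phagocytic receptors, Marco and Mertk had the largest increases. Of the 20 in this list 10 were higher and 5 lower (7 and 7 after quantile normalisation), with a median of 0.20. Marco, a scavenger receptor for bacteria, read 7.43, 7.27 and 7.68 in the LysM-Cre libraries and 9.29, 9.53 and 9.14 in the others (1.87, adjusted p = 3.57e-10), less than the 2.76 before LPS. Mertk, a receptor for apoptotic cells, read 9.07, 9.09 and 9.25 against 10.74, 10.86 and 10.75 (1.65, adjusted p = 6.21e-14), more than the 0.97 before LPS. Cd5l was 1.04 lower. Olr1, the lectin-like receptor for oxidised LDL, read 9.75, 9.83 and 9.68 against 8.45, 8.60 and 8.77 (-1.15, adjusted p = 1.62e-08), after 0.10 before LPS. Its promoter is shown as an example of the 10 of 74 promoters of lower genes with an AP-1 match, which stands in capitals at -60 from the start. Among other lower genes, 1 of the promoters of Folr2 held a match at -74, and the 250 bases before the starts of Cav1, Pgf, Csf2, Cxcl3, Adora2b, Ccl17, Col18a1, Errfi1 and Timp1 held none. The promoter of Olr1 lies on the minus strand at chr6:129507166-129507415.
Olr1: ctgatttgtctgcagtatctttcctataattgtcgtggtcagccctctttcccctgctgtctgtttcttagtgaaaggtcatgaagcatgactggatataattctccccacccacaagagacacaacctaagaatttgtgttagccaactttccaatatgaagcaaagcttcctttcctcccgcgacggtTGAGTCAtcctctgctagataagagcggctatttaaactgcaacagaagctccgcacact

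Costimulatory ligands differed strongly in part. Of 12, 5 were higher and 3 lower. Tnfsf15, a TNF family cytokine known as TL1A, read 10.61, 10.63 and 10.82 in the LysM-Cre libraries and 12.63, 12.70 and 12.74 in the others (2.00, adjusted p = 1.66e-08), after 1.19 before LPS. Cd86, a ligand of CD28, read 9.0, 9.04 and 9.16 against 10.31, 10.28 and 10.35, 1.24 higher. Icosl and Tnfsf4, the ligands of ICOS and OX40, were each 0.47 lower. The first pair was thus well separated, and the second pair differed by less than 2-fold.

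The caveolin gene and genes of the pericellular matrix gave several large decreases. Of 15 in this list 3 were higher and 6 lower (10 lower after quantile normalisation), and 4 of the lower were past 2-fold. The member Ehd2 passed the filter only through the LysM-Cre libraries at 2 h and was not called (-0.24). Cav1, the main protein of caveolae, read 9.70, 9.80 and 9.71 in the LysM-Cre libraries and 7.25, 7.14 and 7.48 in the others. It was lower by 2.45 on the log2 scale (difference -2.45, SE 0.09, adjusted p = 1.79e-14), after -0.95 before LPS. Col18a1, a basement membrane collagen, read 12.11, 12.15 and 12.08 against 9.82, 9.76 and 9.93 (-2.28, adjusted p = 2.23e-16). Cspg4, a membrane proteoglycan, read 7.28, 7.24 and 7.29 against 5.30, 5.25 and 4.99 (-2.09, adjusted p = 6.17e-10). Col18a1 and Cspg4 differed by -2.19 and -2.46 before LPS, with no call of a difference between the times. Fn1 and Thbs1, secreted matrix glycoproteins, were 0.96 and 0.89 higher. Among 13 growth factors 7 were higher and 5 lower, with Bmp2 and Edn1 1.25 and 1.09 higher and Pdgfa and Pdgfb 1.05 and 0.70 lower. Pgf, a relative of VEGF, was 1.78 lower.

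Further large decreases belonged to no common list. Nptx1, a pentraxin, was 2.21 lower after 2.60 lower at 0 h. Folr2, a folate receptor of macrophages, was 2.02 lower and was 2.03 lower at 0 h. Lancl3 was 2.16 lower and Akap2, an anchoring protein of protein kinase A, 1.96 lower. Smpd3, a neutral sphingomyelinase, read 7.39, 7.42 and 7.18 in the LysM-Cre libraries and 4.80, 4.96 and 5.08 in the others (-2.38, adjusted p = 2.55e-13), after -2.29 before LPS. The other sphingolipid enzymes differed less. Of 19, 9 were higher and 3 lower (6 and 6 after quantile normalisation), with Asah2 and Sptlc2 0.72 and 0.56 higher. Gm42674, a predicted gene, read 2.59 higher with a wide error (SE 0.94, adjusted p = 0.03), and this call was lost without any of the LysM-Cre libraries or FosKO replicates 1 or 3 (2.38 to 2.61 higher, adjusted p = 0.0622 to 0.0861).

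Immunometabolic and stress response genes were mostly higher, whereas glycolysis and hypoxia genes were not. Of 13 immunometabolic enzymes 10 were higher and 1 lower, with a median of 0.55. Ass1, which recycles citrulline to arginine, read 9.99, 9.98 and 10.00 in the LysM-Cre libraries and 11.55, 11.58 and 11.79 in the others, 1.65 higher after 1.53 at 0 h. Cmpk2, a mitochondrial nucleotide kinase, was 1.42 higher, and Odc1, which starts polyamine synthesis, 0.47 lower. Of 17 genes of the integrated stress response 13 were higher and 1 lower, with a median of 0.34. At 0 h, where 35.4% of all tested genes were called, 15 of the 17 were higher and 1 was lower, with a median of 0.52. At 2 h Ppp1r15a (GADD34), which restarts translation, was 1.03 higher, Ddit3 (CHOP) 0.88 higher and Ddit4 0.45 lower. Of 19 genes of cholesterol synthesis and efflux 11 were higher and 4 lower (2 lower when either LysM-Cre replicate 2 or FosKO replicate 3 was left out). Ch25h, an IFN-stimulated enzyme that makes 25-hydroxycholesterol, was 1.25 higher and Insig1 0.45 higher. Of 18 glycolysis and hypoxia genes 5 were higher and 7 lower (4 and 11 after quantile normalisation), with Adm and Hk3 0.74 and 0.68 higher and Slc16a3 and Bnip3 0.34 and 0.31 lower.

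Cell cycle genes were the list in which lower calls most outnumbered higher ones. Of 24, 2 were higher (1 without LysM-Cre replicate 2 or after quantile normalisation, and 4 when only the 6 libraries at 2 h were fitted) and 11 lower, with a median of -0.16. Ccnb2 and Plk1, of mitosis, were 0.76 and 0.66 lower. At 0 h, where 35.4% of all tested genes were called in either direction, 0 of the 24 were higher and 19 were lower. Of 20 genes of survival and apoptosis 14 were higher and 1 lower (10 and 2 after quantile normalisation). The lower count was also 2 without FosKO replicate 3, with a stricter filter, with a replicate block and in both fits on fewer times. Bcl2a1b and Pmaip1 were 0.70 and 0.66 higher and Bcl2l1 0.27 lower. Of 15 inflammasome and pyroptosis genes 10 were higher and 4 lower. Mlkl, the effector of necroptosis, and Nlrc4, a sensor of flagellin, were 0.98 and 0.68 higher, and Nlrp1b was 0.39 lower.

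**Figure D4:**
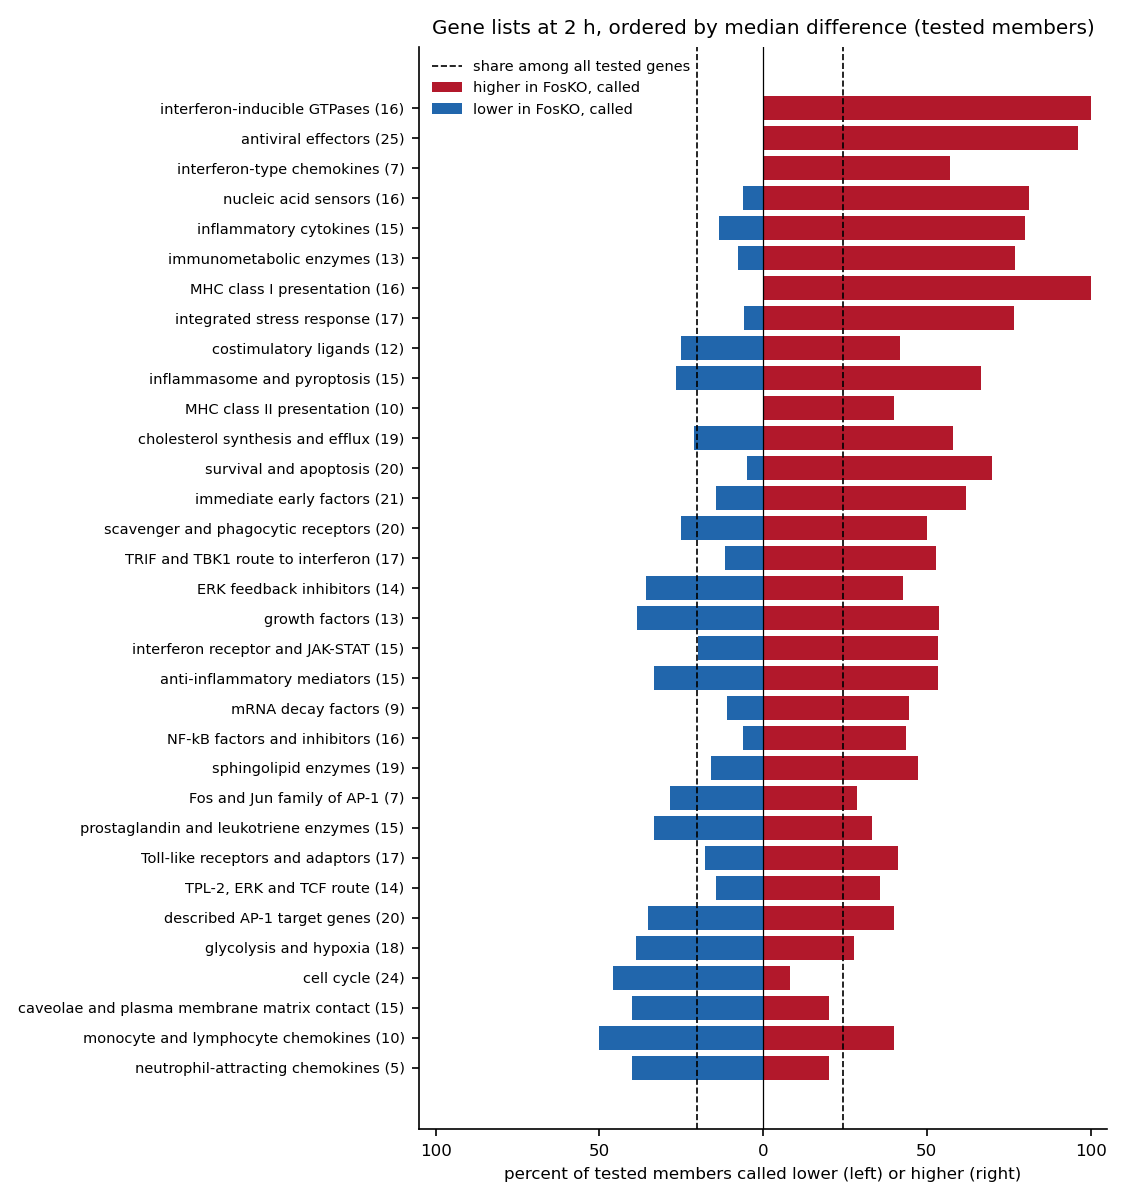
Bars give the percent of the tested members of each gene list called higher (red, right) or lower (blue, left) in the libraries labelled FosKO at 2 h, with the number tested in brackets and lists ordered by median difference. Dashed lines mark the 24.4% and 20.3% of all tested genes. IFN-inducible GTPases and MHC class I genes are wholly to the right, cell cycle genes have 11 of 24 to the left, and after quantile normalisation lower calls exceed higher ones in the NF-kB, TPL-2, anti-inflammatory, prostaglandin and AP-1 target lists. The IFN genes are left out, since 3 passed the filter only through these libraries. The caveolae list holds Ehd2, which passed only through the LysM-Cre libraries at 2 h.

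The response to LPS was set beside the genotype by choosing genes on libraries outside the 2 h comparison. Genes called at least 2-fold higher in LysM-Cre at 1 h than at 0 h numbered 325 (2.34% of those tested), and those called 2-fold lower numbered 180 (1.29%). Of the LPS-induced genes, 131 (40.3%) were higher at 2 h in the libraries labelled FosKO and 88 (27.1%) were lower, with a median of 0.10. Of 92 genes chosen at 0.5 h instead, 51.1% were higher and 15.2% lower, with a median of 0.23, so the balance depends on the time of choice. Of the genes that LPS lowered, 9 (5%) were higher and 65 (36.1%) lower, with a median of -0.19. All tested genes had 24.4% higher, 20.3% lower and a median of 0. After quantile normalisation 103 of the induced genes were higher and 103 lower. LysM-Cre replicates 2 and 3 at 1 h, used to choose these genes, are among the libraries with low 18S ribosomal RNA, and the part of this was not tested.

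Induced genes past 2-fold numbered 20 higher and 14 lower. Beside Ifnb1, Il27, Il6 and Il12b on one side and Cav1, Ccl22, Il10 and Csf2 on the other, they held genes chosen here after their values were seen. Gem, a small GTPase, read 8.34, 8.27 and 8.40 in the LysM-Cre libraries and 9.94, 9.85 and 10.04 in the others, 1.61 higher. Sgk1, a serum- and stress-induced kinase, read 11.77, 11.65 and 11.78 against 13.30, 13.18 and 13.11, 1.47 higher. Adora2b, a receptor for adenosine, read 7.87, 7.92 and 7.78 against 5.98, 5.87 and 6.12 and was 1.86 lower. Errfi1, a feedback inhibitor of the EGF receptor, had a mean of 10.96 (SD 0.04, n = 3) against 9.68 (SD 0.13, n = 3) and was 1.28 lower. Genes that LPS induces in control cells were thus found on both sides.

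The earlier times show when some of these differences appeared. Ifnb1 had mean values of 6.08, 6.34, 8.99 and 9.88 at 0, 0.5, 1 and 2 h in the LysM-Cre libraries and 6.17, 8.03, 12.18 and 12.89 in the libraries labelled FosKO. Its difference was 3.18 at 1 h and 3.00 at 2 h (difference between these times -0.18, adjusted p = 0.609). Ifna5 moved further apart, with a difference of 3.09 at 1 h and 4.15 at 2 h (1.06 more, adjusted p = 8.65e-05). Il10 had means of 5.98, 7.81, 8.24 and 8.19 against 5.72, 7.06, 6.88 and 6.49. Its difference of -1.36 at 1 h was not separated from that at 2 h (adjusted p = 0.312). Csf2 was highest at 1 h in both groups, at 8.11 and 6.68. Klf4 did not differ by a call at 1 h (-0.01) and differed by 1.27 at 2 h (adjusted p = 2.09e-08 for the change). The mean of Fos in the LysM-Cre libraries was 11.11, 13.52, 11.15 and 9.52, and in the libraries labelled FosKO it stayed between 12.60 and 12.80. Over all tested genes the difference at 2 h was called apart from that at 1 h in 11.6%, higher in 5.92% and lower in 5.73%. Among the 199 genes 2-fold higher this was higher in 41 and lower in 2, and among the 78 lower it was lower in 15 and higher in 1. Here too the choice of the genes on the 2 h difference favours these directions, and nothing is read from the counts. The 1 h groups hold 3 libraries with low 18S ribosomal RNA, whose part here was not tested.

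**Figure D5:**
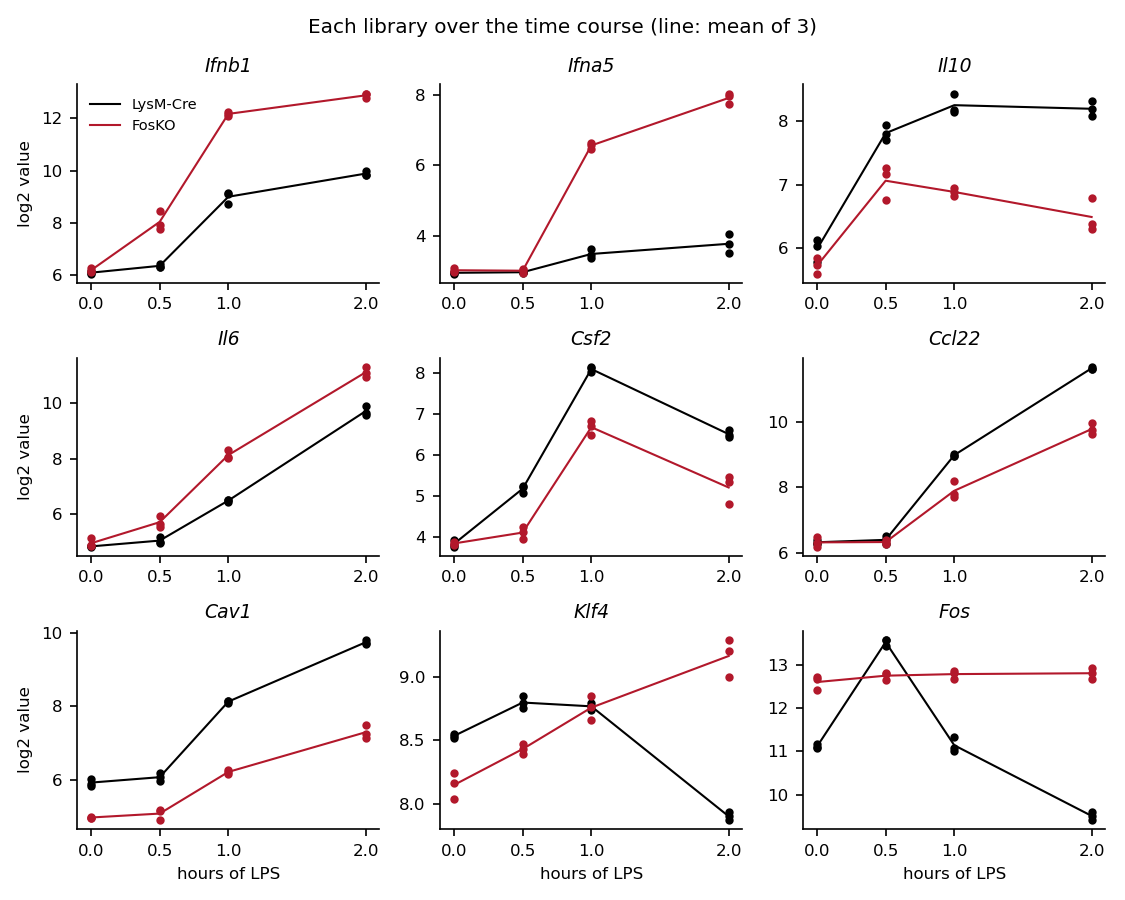
Each panel gives the log2 value of 1 gene in every library at 0, 0.5, 1 and 2 h of LPS, with LysM-Cre in black, libraries labelled FosKO in red and lines through the mean of 3, and each panel has its own axis that does not start at 0. Ifnb1 is apart from 0.5 h on, Ifna5 from 1 h on, and the Klf4 lines cross at 1 h.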

How the data were processed

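RNA sequencing was compared between 3 FosKO and 3 LysM-Cre libraries after 2 h of LPS, and all 24 libraries of the series entered the fit. According to the methods, strand-specific single-end TruSeq libraries were mapped with STAR (2.5.2a) and counted per gene with RSEM (1.2.31) against mm10. DESeq2 was used, in version 1.16.1 by the submitters' processing notes and in another version by the methods. The methods name RefSeq genes, whereas the table has Ensembl identifiers, so the annotation is uncertain. The authors deposited 1 table of normalised log2 values, from -2.22 to 19.39. They resemble a regularised log, which would understate differences of low genes. The methods give a typical read yield, but the depth of each library is not given in the sources used here, and read counts could not be recovered from the values.

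Genes entered the test with a linear value (2 to the power of the log2 value) of 5 or more in 3 or more libraries (13901 genes). limma 3.58.1 in R 4.3.3 fitted 8 group means with a trended variance and 16 residual degrees of freedom, and p-values were adjusted by Benjamini-Hochberg over all tested genes, with calls at 0.05. Differences between times were contrasts of the same fit. An exact permutation test of 3 against 3 libraries cannot give p below 0.1 and was not used. The design allowed for a pseudocount of 1, which became an alternative because the values were already log2. The script was tested on simulated data. The comparison, the gene lists and the tests were chosen with earlier results of these data known.

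Genes were named by rule. Those named are the 8 largest differences in each direction among called protein-coding genes with a linear mean of at least 50 and no overlap, the 2 largest called members of each list in each direction, the 5 largest differences in each direction between 2 h and 0 h among 2-fold genes, and a set that includes the Fos and Jun genes and main cytokines. A few others are said to be chosen after their values were seen. Members of a list that were low or lost under an alternative are not all named, and some are not reported here. Motifs were searched in RefSeq promoters from 250 bases before to 50 after each start (GRCm38.p6). Other normalisation, scale, filter, moderation and sample choices were tried, as was leaving out each of the 6 libraries at 2 h. No library of another time was left out singly.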

Additional observations from a re-analysis of the deposited data

Results flagged for a closer look

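For the genes named here, the genotype difference at 2 h was called different from that before LPS, by an interaction term in limma with p-values adjusted over all tested genes. Each value is the log2 difference at 2 h minus that at 0 h. A value below 0 means that the libraries labelled FosKO were lower, relative to LysM-Cre, at 2 h than at 0 h.

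IFN genes had moved up by 4.08 (Ifna5), 3.90 (Ifna2), 3.55 (Ifna4), 3.21 (Ifna1) and 2.91 (Ifnb1). The predicted gene Gm42674 had 5.31, the largest of these values. On the routes to and from IFN, Irf8 had 1.22, Traf3 -0.35, Ifnar1 -0.41 and Ifngr2 -0.42. Among cytokines, Il6 had 1.29, Il12b 1.05, Il27 0.72 and Tnf 0.27, whereas Il10 had -1.44 and Csf2 -1.32. The anti-inflammatory genes Gdf15 and Nfil3 had 0.52 and 0.49, and Bcl3 had -0.78. Of the chemokines, Cxcl2 had 0.41, Ccl22 -1.86, Ccl17 -1.56 and Cxcl3 -1.49.

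Growth factors went both ways, with Bmp2 at 0.92, Edn1 at 0.87, Pdgfa at -0.79 and Pgf at -1.52. Among the transcription factors, Fos had 1.80, Jun 0.66, Fosl2 0.28, Jund 0.23, Klf4 1.65, Egr1 1.18 and Ets2 0.38. Regulators of signaling gave 0.56 for Dusp16, 0.60 for Spry1, -1.25 for Dusp7, 0.32 for Nfkbiz, -0.64 for Tnip1, 0.43 for Tlr4 and -0.19 for Tirap. For mRNA decay, Zfp36l1 had 1.24 and Zc3h12a -0.23. In the prostaglandin pathway Ptgs2 had 0.61, Ptges -1.47 and Ptger2 -1.10, and Serpinb2 had 1.08.

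Of the surface receptors and ligands, Mertk had 0.68, Marco -0.89, Olr1 -1.25, Tnfsf15 0.81, Icosl -0.67 and Tnfsf4 -0.67. For the membrane and matrix, Cav1 had -1.50 and Thbs1 -0.76. Nptx1 had 0.39 and Lancl3 -1.41, and the predicted gene Gm10257 had -1.55. Metabolic and stress genes gave 0.21 for Sptlc2, -0.64 for Sphk1, 0.86 for Ch25h, 0.41 for Insig1, 0.77 for Adm, -0.42 for Odc1, 0.55 for Ppp1r15a and -0.83 for Ddit4. Cell cycle and death genes gave 0.67 for Ccne1, 0.28 for Pcna, -0.28 for Bcl2a1b, 0.36 for Pmaip1, -0.50 for Bcl2l1 and 0.43 for Nlrp1b.

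Of these 72 calls, 11 were lost under some alternative. They are those of Tnfsf15, Fosl2, Il27, Cxcl2, Ptgs2, Sptlc2, Pcna, Bcl2a1b, Gm10257, Jund and Tnf. Leaving out single libraries at 2 h lost the calls of Tnfsf15, Fosl2, Ptgs2, Bcl2a1b, Gm10257, Jund and Tnf, and quantile normalisation those of Tnfsf15, Il27, Cxcl2, Ptgs2, Sptlc2, Pcna, Jund and Tnf.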

How the results depend on the processing

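The count of called genes at 2 h was 6202, between 5485 and 5760 when single libraries were left out and between 5851 and 6315 under the other alternatives. The 2-fold count of 277 gave 256 to 300 and 219 to 284. The list counts of 386 in all gave 364 to 373 and 367 to 401, the differences between 2 h and 0 h (2081) 1687 to 2012 and 1826 to 2316, and those between 2 h and 1 h (1619) 1276 to 1520 and 1359 to 1809. Called LPS-induced genes (219) gave 202 to 209 without single libraries. When LPS-induced genes were chosen at 0.5 h, 92 were found and 61 were called, 47 (51.1%) higher and 14 (15.2%) lower. The count fell because fewer genes were chosen, and the cause of the different balance was not tested. Of 135 named genes, 120 had the same call and sign at 2 h under every alternative and 15 did not. Jund counts among the 15 through its sign alone. Junb (-0.0081) and Jund (-0.038) turned below 0 after quantile normalisation, and neither was called there. Junb was called higher when only the 6 libraries at 2 h were fitted (0.13, adjusted p = 0.0396) and without LysM-Cre replicate 2 (0.17, adjusted p = 0.0476). With the replicate number as a block, 6315 genes were called at 2 h, 277 of them 2-fold, and only the call of H2-Ob was lost among the named genes. Same-numbered libraries at 2 h deviated together at r of -0.03, -0.01 and 0.03 across genes, so no broad pairing by number was seen. A pairing that touched few genes would not show in these values. The fit with the 2 h and 0 h libraries alone was added after the data were seen. As read totals per library are not given in the sources used here, differences of low genes cannot be given a counting error.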

Other observations

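Some genes differed in opposite directions before and after LPS. With calls at 0 h, at 2 h and between the times, a linear mean of at least 50 and a protein-coding gene, 191 such genes were found, of which 79 were lower at 0 h and higher at 2 h and 112 the reverse. Over all tested genes, 44.6% were called at 2 h, 35.4% at 0 h and 15% between the times. The share among genes of that level and type was not taken, so the count is a description. The examples given here were chosen after their values were seen. Plagl1, a zinc finger factor, went from -0.40 at 0 h to 1.11 at 2 h. Phlda1 went from -0.45 to 0.83. Plod2, an enzyme of collagen cross-linking, differed by -0.58 and 0.50.

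In the other direction, Col15a1, a basement membrane collagen, differed by 0.58 at 0 h and -0.44 at 2 h. Src, the tyrosine kinase, differed by 0.57 and -0.29. Ptgir, the prostacyclin receptor, differed by 0.47 and -0.31. Jdp2, a leucine zipper protein that dimerises with JUN, differed by 0.25 at 0 h and -0.71 at 2 h. The groups did not overlap at 2 h in any of these 7 genes. They were chosen among genes called on the same libraries, and 54% of all tested genes did not overlap, so nothing is read from it.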
